A study of Mus musculus with 7 samples.

Results

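Genes that encode inhibitors of cyclin-dependent kinases (CDKs) were followed in RNA of sorted muscle eosinophils: Cdkn2a, Cdkn2b, Cdkn2c, Cdkn2d, Cdkn1a and Cdkn1b. They are 6 of the 24421 genes counted, taken by symbol, and all 6 had a row in the table and passed the filter on low counts. The group was chosen because Cdkn2a and Cdkn2b were both higher in the transgenic libraries, so the values of the 6 genes in the 2 genotypes are a description, and no p-value is given for them. The libraries were 3 labelled WT and 4 labelled IL5-Tg, the latter named for a transgene of interleukin-5, the main growth and survival cytokine of eosinophils. Libraries are called WT 1 to 3 and IL5-Tg 1 to 4, numbers given in accession order. All 7 came from mouse muscle 3 days after ntx, an abbreviation that the labels do not spell out. Digested muscle was sorted for cells positive for CD45 and SiglecF and negative for NK1, Ly6G and CD3e, and the labels call the cells eosinophils. The strain, age and sex of the mice, the promoter and cell type that drive the transgene, and whether the mice carried the mdx mutation named in the series' title are not given in these sources. Nor do the labels say whether the libraries of a genotype came from separate mice, so every spread and p-value given here is that between these libraries and may be technical.

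CDK inhibitors stop the cell from entering or passing through the division cycle. The INK4 proteins, p15 (Cdkn2b), p16 (Cdkn2a), p18 (Cdkn2c) and p19Ink4d (Cdkn2d), bind CDK4 and CDK6 and keep D-type cyclins from activating them, so that the retinoblastoma protein stays unphosphorylated and holds back E2F transcription factors. The CIP/KIP proteins p21 (Cdkn1a) and p27 (Cdkn1b) act on cyclin E and cyclin A complexes with CDK2. Cdkn2a also encodes ARF, read in another frame, which inhibits MDM2 and so raises p53. The locus of Cdkn2a and Cdkn2b is known for Polycomb silencing in young cells and for its rise in ageing and senescent cells, while mature granulocytes are cells that no longer divide.

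Cdkn2a lies on mouse chromosome 4 at 89274471 to 89294653 and Cdkn2b at 89306299 to 89311039, both on the minus strand, with 11.64 kb between them (mm10, GENCODE vM21). Cdkn2a has 2 annotated transcripts, of 852 and 895 bases, which share 575 bases and start 12.46 kb apart. The one that starts upstream encodes ARF and the one that starts downstream encodes p16. A count per gene does not tell them apart, so every Cdkn2a value below is the sum of both. The promoters of these 3 starts are shown because, of the 6 genes, the 2 whose levels differ most between the genotypes are read from them. Each window runs from 250 bases before to 50 bases after the start and is 300 bases long (RefSeq, GRCm38.p6, minus strand, chr4:89294570-89294869, chr4:89282143-89282442 and chr4:89310983-89311282). Capitals mark matches to the motifs described next.
Cdkn2a upstream start: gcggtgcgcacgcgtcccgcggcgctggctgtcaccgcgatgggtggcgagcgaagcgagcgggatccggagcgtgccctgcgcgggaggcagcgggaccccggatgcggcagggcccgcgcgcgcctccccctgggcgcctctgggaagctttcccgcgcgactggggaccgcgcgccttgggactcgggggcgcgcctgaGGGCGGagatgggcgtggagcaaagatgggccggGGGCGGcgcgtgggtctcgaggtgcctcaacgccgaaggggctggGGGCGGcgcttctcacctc
Cdkn2a downstream start: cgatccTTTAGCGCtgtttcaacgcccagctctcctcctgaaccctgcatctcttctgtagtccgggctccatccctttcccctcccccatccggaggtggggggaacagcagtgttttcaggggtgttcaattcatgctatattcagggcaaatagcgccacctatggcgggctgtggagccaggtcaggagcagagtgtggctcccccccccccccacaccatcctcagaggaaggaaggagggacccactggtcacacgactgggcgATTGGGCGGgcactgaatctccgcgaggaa
Cdkn2b start: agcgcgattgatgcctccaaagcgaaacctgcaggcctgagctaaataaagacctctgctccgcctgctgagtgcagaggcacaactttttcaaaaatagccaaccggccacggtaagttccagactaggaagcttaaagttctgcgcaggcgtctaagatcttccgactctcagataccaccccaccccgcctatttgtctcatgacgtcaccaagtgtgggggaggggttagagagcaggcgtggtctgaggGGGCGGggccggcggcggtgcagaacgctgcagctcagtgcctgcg

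The 3 windows differed in base composition. The upstream Cdkn2a window was 77% G and C with 45 CpG pairs, the downstream one 60.3% with 12, and that of Cdkn2b 57.7% with 18, where the median of 32851 mouse promoter windows was 52.7% with 7 CpG pairs. The motifs were searched on both strands. The GC box GGGCGG, found in 35.7% of all windows, occurred 3 times in the upstream Cdkn2a window and once each in the downstream Cdkn2a and Cdkn2b windows. The downstream Cdkn2a window also held 1 match to the E2F site TTTNGCGC, found in 1.38% of windows, and 1 to the CCAAT box, found in 37.4%, which on the other strand overlaps the GC box in the capitals near the window's end. None of the 3 windows held the STAT site TTCNNNGAA (8.3% of windows), the TATA box TATAAA (13.6%) or the E-box CACGTG (7.15%), nor did the windows of the other 4 genes hold the STAT site. Such matches are letters only and say nothing of binding.

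Total counts per library ran from 11581365 to 20231509, of which 9665093 to 17447106 were in genes, and 10877 to 14391 genes had a read. Il5 was at 338 to 447 CPM (a gene's reads scaled to the library's reads in genes) in the IL5-Tg libraries, at 1.39 CPM in WT 1 and at 0 reads in WT 2 and 3. The sort marker Siglecf was at 251 to 648 CPM in WT and 470 to 857 CPM in IL5-Tg libraries, the eotaxin receptor gene Ccr3 at 640 to 1393 and 575 to 1058 CPM, and the eosinophil peroxidase gene Epx at 2.72 to 15.2 and 15.9 to 32.8 CPM. Low counts were distributed differently in the 2 genotypes: among genes with few reads, the commonest number of reads was 5 for WT 1, 8 for WT 2 and 12 for WT 3, while it was 1 for IL5-Tg 1 to 3 and 4 for IL5-Tg 4. WT 3 stood apart with the fewest genes detected and the lowest level of fibroblast markers. In bulk RNA, fewer cells that express a gene and less of its RNA per cell cannot be told apart.

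Cdkn2a was close to absent from WT eosinophils and well expressed in every IL5-Tg library. It had 14, 29 and 0 reads in WT 1 to 3, or 0.846, 3.06 and 0 CPM. In IL5-Tg 1 to 4 it had 754, 927, 965 and 1491 reads, or 70.6, 71.2, 70.3 and 77.4 CPM. The lowest IL5-Tg library thus stood far above the highest WT library, and the IL5-Tg libraries lay close together, with a coefficient of variation of 4.64%. Mean levels were 1.30 ± 1.58 CPM for WT (SD, n = 3) against 72.4 ± 3.36 CPM for IL5-Tg (SD, n = 4), a 55.6-fold ratio and a fitted log2 fold change of 5.84 ± 0.91 (SE). The WT level rests on few reads. Divided by that commonest low count of its library it amounts to 2.80, 3.62 and 0 such units, and 0 reads in WT 3 allow up to 0.284 CPM by a floor of 3 reads, or 3.40 CPM by a floor of 3 molecules at 12 reads each. These floors cover counting error only. Without WT 2, which held most of the WT reads, the log2 fold change was 7.25, and without WT 3 it was 5.31.

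Cdkn2b, the neighbouring INK4 gene, which is known as a target of TGF-beta signalling, differed in the same direction at lower levels. Its reads were 13, 26 and 13 in WT 1 to 3, or 0.785, 2.75 and 1.23 CPM, and 167, 239, 302 and 295 in IL5-Tg 1 to 4, or 15.6, 18.4, 22.0 and 15.3 CPM. The 2 genotypes did not overlap. Mean levels were 1.59 ± 1.03 CPM for WT (SD, n = 3) against 17.8 ± 3.10 CPM for IL5-Tg (SD, n = 4), an 11.2-fold ratio with a fitted log2 change of 3.51 ± 0.52 (SE), or 4.17 without WT 2. In units of the most common low count the WT reads came to 2.60, 3.25 and 1.08. Over the 7 libraries, after each genotype's mean was removed, Cdkn2a and Cdkn2b had a Pearson r of 0.63 (log2(CPM + 1)). This is a description that rests largely on the few reads of the WT libraries. Other pairs of the inhibitor genes had an r of larger size. These were Cdkn1b with Cdkn2a (-0.91) and with Cdkn2b (-0.84), and Cdkn2c with Cdkn2d (-0.75) and with Cdkn1a (-0.73).

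Cdkn2c and Cdkn2d, the INK4 genes outside the locus, had ranges that overlapped between the genotypes. Cdkn2c, on chromosome 4 at 109660876 to 109667189, was at 15.3, 12.5 and 10.02 CPM in WT 1 to 3 and at 17.1, 10.6, 18.1 and 17.9 CPM in IL5-Tg 1 to 4. Its fitted log2 fold change was 0.34 ± 0.34 (SE), and 1 IL5-Tg library was low. Cdkn2d, on chromosome 9 at 21288410 to 21291407, was at 151, 117 and 183 CPM in WT and at 89.6, 131, 73.2 and 93.9 CPM in IL5-Tg libraries. All IL5-Tg libraries but one lay under every WT library, and IL5-Tg 2 lay within the WT range. Mean levels were 150 ± 32.8 CPM for WT (SD, n = 3) against 96.9 ± 24.4 CPM for IL5-Tg (SD, n = 4), and the fitted log2 difference was -0.63 ± 0.27 (SE).

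The CIP/KIP genes also overlapped between the genotypes. Cdkn1a, the p53-responsive inhibitor, on chromosome 17 at 29090976 to 29100727, was the most abundant of the 6 at 548, 919 and 1285 CPM in WT and 1244, 1324, 864 and 1140 CPM in IL5-Tg libraries. Its mean level was 917 ± 369 CPM for WT (SD, n = 3) against 1143 ± 201 CPM for IL5-Tg (SD, n = 4), and the fitted log2 difference was 0.32 ± 0.32 (SE), which was 0.06 without WT 1 and 0.66 without WT 3. A transcript on the other strand is annotated over a part of Cdkn1a, and the strand setting of the counting is not known. Cdkn1b, the inhibitor that holds resting cells out of the cycle, on chromosome 6 at 134920401 to 134925513, was at 192, 54.3 and 238 CPM in WT and at 86.3, 95.1, 89.1 and 119 CPM in IL5-Tg libraries. WT 2 was lower than every IL5-Tg library and the other 2 WT libraries were higher than all of them. Its log2 fold change was -0.73 ± 0.41 (SE), and it was -1.12 without WT 2 and -0.31 without WT 3.

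**Figure D1:**
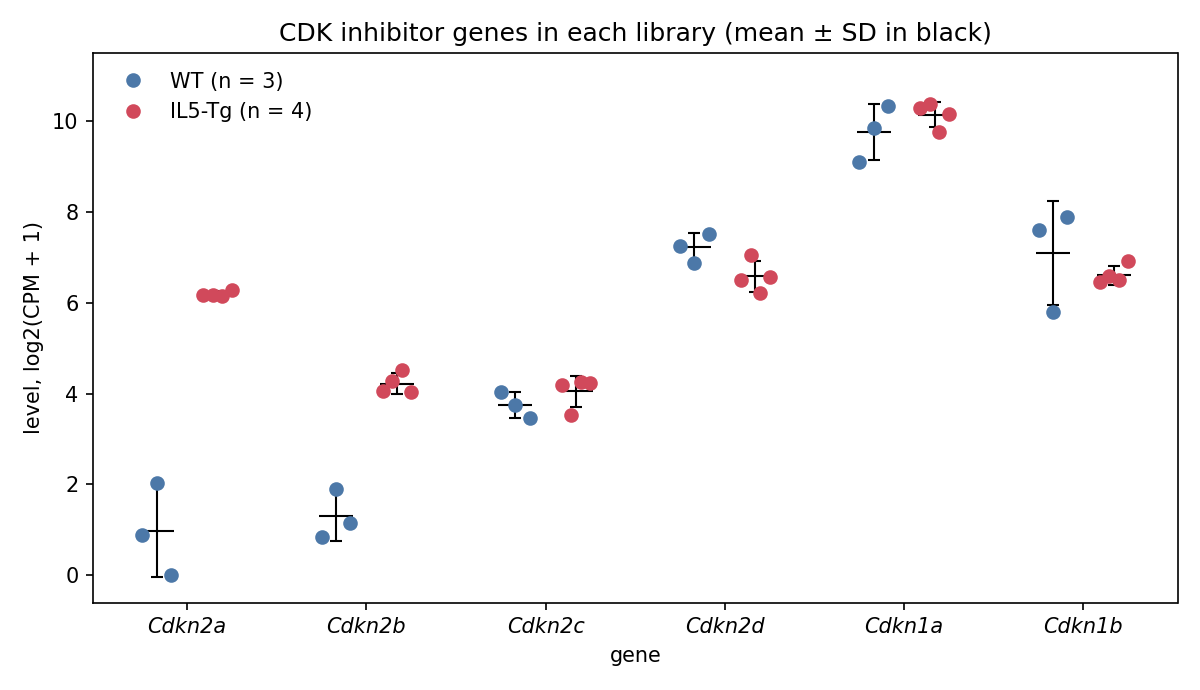
Level of each CDK inhibitor gene in each library as log2(CPM + 1), with WT libraries in blue (n = 3), IL5-Tg libraries in red (n = 4) and mean ± SD in black. Cdkn2a and Cdkn2b separate the genotypes, with all IL5-Tg libraries at 15.3 CPM or more and all WT libraries at 3.06 CPM or less, while the other 4 genes overlap.

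Of the 6 genes 2, Cdkn2a and Cdkn2b, passed an adjusted p of 0.05 in the edgeR fit of all 12428 tested genes, both higher in IL5-Tg. Neither passed by limma-voom, where 22 of 12428 tested genes did, or without WT 1, where 19 of 12688 did. Neither passed without any 1 of the IL5-Tg libraries, where 16 to 30 genes did. Only 1 passed under upper-quartile scaling (51 of 12428 genes in all) and under both other filters on low counts (72 of 16098 and 52 of 7945). By DESeq2 2 of the 6 passed, with 225 of 12428 in all. In the edgeR fit 0.338% of genes passed in this direction and 0.0724% in the other. Their ranges also did not overlap, as for 4.76% of all genes in this direction, while 4.6% did not overlap in the other. Because the 6 genes were selected on this contrast, nothing is read from these counts.

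Per kilobase of exon, the scale on which genes can be compared with each other, the order of the 6 genes differed between the genotypes. In WT libraries Cdkn1a stood at 258 ± 104 CPM per kilobase (SD, n = 3), Cdkn2d at 95.5 ± 20.9, Cdkn1b at 35.5 ± 21.0, Cdkn2c at 4.69 ± 0.981, Cdkn2b at 1.14 ± 0.739 and Cdkn2a at 1.11 ± 1.35. Only the last 2 had ranges that overlapped their neighbour in this order. In IL5-Tg libraries Cdkn1a stood at 322 ± 56.5 CPM per kilobase (SD, n = 4), Cdkn2a at 61.8 ± 2.87, Cdkn2d at 61.6 ± 15.5, Cdkn1b at 21.4 ± 3.30, Cdkn2b at 12.8 ± 2.23 and Cdkn2c at 5.93 ± 1.33. Here Cdkn2a and Cdkn2d overlapped and no other neighbours did, so Cdkn2a went from the lowest place to one shared with Cdkn2d. Exon lengths were unions over all annotated transcripts, 1172 bases for Cdkn2a and 4552 for Cdkn1b, which lowers the level of a gene whose short transcripts dominate.

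The make-up of the INK4 group differed too. Cdkn2a and Cdkn2b together made up 0.732% to 5.48% of the summed level per kilobase of the 4 INK4 genes in WT libraries and 45.9% to 58.7% in IL5-Tg libraries, with means of 2.49% ± 2.61 (SD, n = 3) and 52.9% ± 5.28 (SD, n = 4). The summed INK4 level itself was 102 ± 18.6 CPM per kilobase for WT (SD, n = 3) against 142 ± 14.0 for IL5-Tg (SD, n = 4). Summed over all 6 genes the level was 396 ± 123 and 485 ± 68.1 CPM per kilobase, with Cdkn1a at 64.0% ± 11.2 and 66.0% ± 3.13 of it. Within the IL5-Tg libraries Cdkn2a exceeded Cdkn2b per kilobase by 3.79-fold to 5.99-fold.

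**Figure D2:**
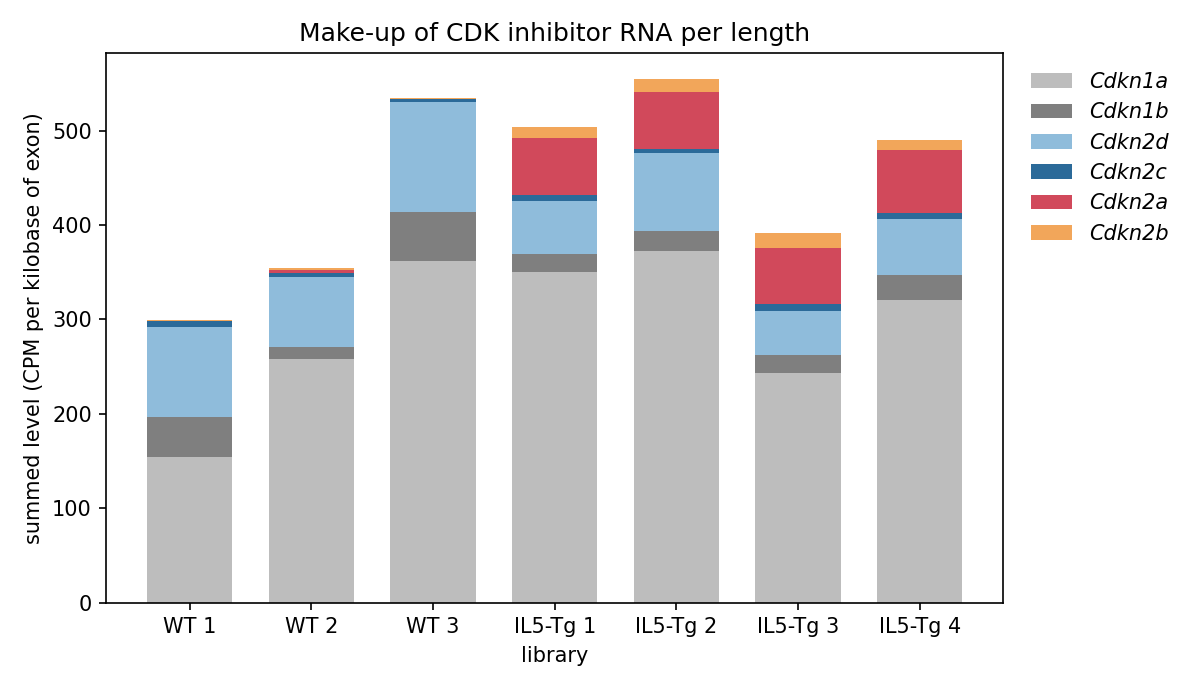
Summed level of the 6 CDK inhibitor genes in each library, in CPM per kilobase of exon, stacked by gene. Cdkn1a (light grey) is the largest part in all 7 libraries, and Cdkn2a with Cdkn2b (red and orange) make up 13.3% to 19.4% of the IL5-Tg stacks and 0.165% to 1.30% of the WT stacks.

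Of the nearest genes with a row, 4 on each side of the locus, only Mtap had more than 2 reads in a library. Mtap, the methylthioadenosine phosphorylase gene that lies 93.39 kb from Cdkn2a, ranged from 10.9 to 20.7 CPM in WT and from 10.8 to 26.8 CPM in IL5-Tg libraries, which overlap. It did not pass the test (fitted log2 change 0.19 ± 0.39 SE, edgeR adjusted p = 0.942). Ifna1, Ifne and Mir31 beyond Mtap, and Dmrta1, Zfp352 and the pseudogene Gm12633 on the other side, had 0 reads in all 7 libraries. Elavl2, a neuronal RNA-binding protein gene 1940 kb away, had 2 reads in IL5-Tg 1 and 1 read in IL5-Tg 3. Of the 6 tested genes of the wider neighbourhood list 0 passed by edgeR, by DESeq2 or at an unadjusted p under 0.05, and their median log2 fold change was -0.18, beside 0.03 over all tested genes. The 2 with the smallest p were Mllt3 at -0.63 and Focad at 1.30 (edgeR adjusted p = 0.79 and 0.83).

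Other lists of the pathway were described by their counts and medians. Over 13 lists, 203 of 216 genes were tested, 1 rose and 0 fell by edgeR, with a median log2 fold change of 0.17. At an unadjusted p under 0.05 the count was 29, or 1123 (9.04%) over all tested genes, and DESeq2 called 6. The D cyclins with CDK4 and CDK6, the direct targets of INK4 proteins, had a median of 0.71, with 5 of 5 values positive and 0 that passed by edgeR, against 2 at an unadjusted p under 0.05 and 2 by DESeq2. Cdk6 was at 2.90, 0.211 and 4.44 CPM in WT and at 21.3, 24.0, 23.4 and 20.2 CPM in IL5-Tg libraries, so every IL5-Tg library was higher than every WT library. Its log2 fold change was 3.13 ± 0.70 (SE; edgeR adjusted p = 0.133), and the adjusted p ran from 0.000229 by DESeq2 to 0.415 over all settings, with 0.0243 without WT 2 and 0.0176 without WT 3. The cyclin D2 gene Ccnd2 was at 14.9, 10.7 and 8.60 CPM in WT and at 33.7, 33.1, 26.6 and 32.0 CPM in IL5-Tg libraries, again without overlap. Its log2 fold change was 1.46 ± 0.30 (SE; edgeR adjusted p = 0.0912, and 0.00171 by DESeq2 to 0.82 over all settings). Cdk4 was at 99.9 ± 62.9 CPM for WT (SD, n = 3) against 113 ± 29.6 CPM for IL5-Tg (SD, n = 4), Ccnd3 at 433 ± 166 and 706 ± 179 CPM, and Ccnd1 at 37.6 ± 30.6 and 55.8 ± 15.1 CPM, and none of the 3 passed.

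Genes further down the cycle had mostly positive values that did not pass, with 1, 2 and 2 at an unadjusted p under 0.05 in the 3 lists that follow and 0 by DESeq2. Among cyclins E, A and B with their kinases, 0 of 11 tested genes passed, with a median log2 fold change of 0.80. Cdk2 was at 22.4 to 83.0 CPM in WT and 21.6 to 33.0 CPM in IL5-Tg libraries (edgeR adjusted p = 0.476), and the mitotic cyclin gene Ccnb2 stood at 1.08 on the log2 scale (edgeR adjusted p = 0.656). Of 34 E2F targets and proliferation genes 31 had a positive value, 0 passed and the median was 0.56. The mitotic kinase gene Aurka was at 6.71, 7.81 and 6.43 CPM in WT and at 16.7, 12.7, 16.03 and 19.1 CPM in IL5-Tg libraries (fitted log2 change 1.21 ± 0.34 SE, edgeR adjusted p = 0.246), and Uhrf1, a factor that maintains DNA methylation, was at 1.14 (edgeR adjusted p = 0.512). The summed level of this list was 913 CPM in WT 1, 1263 in WT 2 and 370 in WT 3, against 740 to 1409 CPM for IL5-Tg, so that WT 3, the library with the fewest fibroblast reads, lay lowest and the other 2 lay within the IL5-Tg range. In the retinoblastoma and E2F families 0 of 17 passed, with a median of 0.13. Lin54, a subunit of the complex that represses cell cycle genes at rest, was at -1.08 and E2f2 at 0.73 (edgeR adjusted p = 0.440 and 0.544), while Rb1, Rbl1 and Rbl2, the pocket protein genes, were at -0.31, -0.31 and -0.40.

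**Figure D3:**
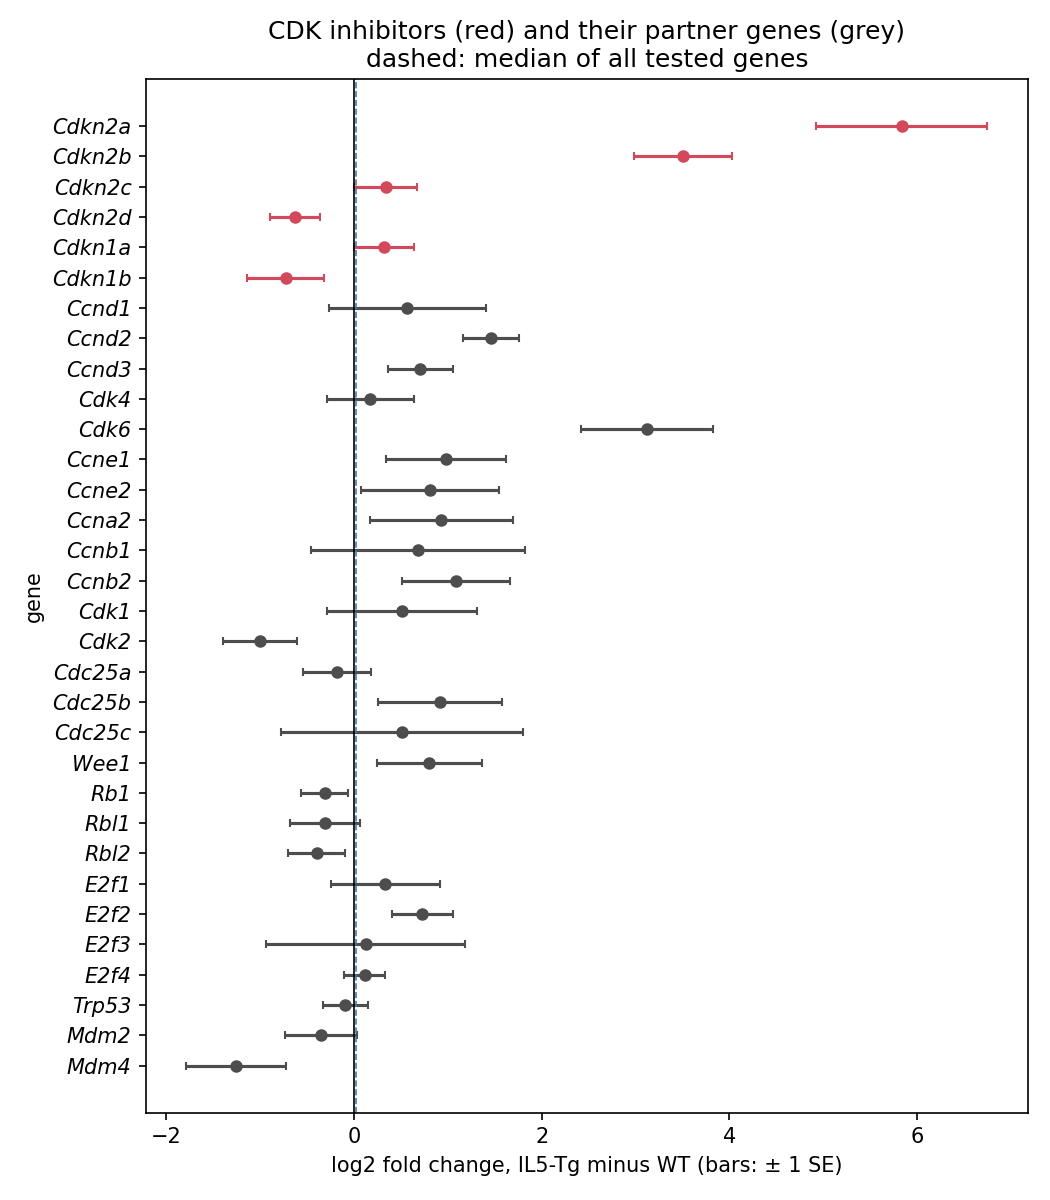
Fitted log2 fold change, IL5-Tg minus WT, with 1 SE, for the 6 CDK inhibitor genes in red and for cyclins, CDKs, pocket proteins, E2F factors and the p53 core in grey, with the median of all tested genes dashed. Beside Cdkn2a at 5.84 and Cdkn2b at 3.51, Cdk6 at 3.13 and Ccnd2 at 1.46 have the highest values.

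The p53 branch, on which ARF acts, held 0 genes that passed by edgeR, with 1 core gene and 6 targets at an unadjusted p under 0.05, and DESeq2 called 1 target, Fas. In the list of ARF, MDM2 and p53 core genes 0 of 6 tested genes passed, with a median log2 fold change of -0.33. Trp53 itself was at 78.3 ± 19.2 CPM for WT (SD, n = 3) against 73.6 ± 5.16 CPM for IL5-Tg (SD, n = 4), and Mdm2 at 54.3 ± 29.6 and 42.6 ± 9.56 CPM. The p53 inhibitor gene Mdm4 was at -1.26 and the deubiquitinase gene Usp7 at -0.36 (edgeR adjusted p = 0.528 and 0.764). Of 23 tested p53 targets 0 passed, with a median of 0.08. The death receptor gene Fas was at 75.9, 37.2 and 101 CPM in WT and at 27.6, 26.98, 24.7 and 29.2 CPM in IL5-Tg libraries, lower in all 4 (fitted log2 change -1.40 ± 0.32 SE, edgeR adjusted p = 0.137, and 0.0164 by DESeq2 to 0.999 over all settings, with 0.0207 without WT 2). Plk2, a stress-induced kinase gene, was at 0.77 (edgeR adjusted p = 0.369).

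Known regulators of the locus, and genes of p27 turnover, did not pass by edgeR or DESeq2. An unadjusted p under 0.05 was found for 5 Polycomb and trithorax genes, 2 transcription regulators, 1 TGF-beta gene and 0 genes of p27 turnover. Of 21 Polycomb and trithorax genes 0 passed, with a median log2 fold change of -0.13. The PRC1 ubiquitin ligase gene Rnf2 was at -1.06 and the H3K27 demethylase gene Kdm6b at -0.94 (edgeR adjusted p = 0.405 and 0.416). Bmi1, the Polycomb gene best known for repressing Cdkn2a, was at 11.7 ± 7.70 CPM for WT (SD, n = 3) against 10.7 ± 2.60 CPM for IL5-Tg (SD, n = 4), and Ezh2, the H3K27 methyltransferase gene, at 23.6 ± 1.98 and 14.5 ± 4.73 CPM, with edgeR adjusted p = 0.963 and 0.577. Among 16 transcription regulators of Cdkn2a the median was -0.31, and Jun and Jund of the AP-1 family were at -0.93 and -0.67 (edgeR adjusted p = 0.307 and 0.530). Of 15 tested genes of the TGF-beta pathway, which acts on Cdkn2b, and other regulators of Cdkn2b 0 passed, with a median of 0.16. Ski was at 0.78 and Mxd1 at 0.66 (edgeR adjusted p = 0.530 and 0.592). Among 12 tested genes of p27 turnover and FOXO factors the median was -0.06, and the ubiquitin ligase subunit gene Cul1 and Foxo4 were at -0.43 and -0.45 (edgeR adjusted p = 0.743 and 0.777).

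Of 8 other inhibitors and binding partners 0 passed by edgeR, and 1, Cdk2ap2, both at an unadjusted p under 0.05 and by DESeq2. Their median was 0.40. Cdk2ap2, which encodes a CDK2-associated protein, went from 337 ± 67.7 CPM for WT (SD, n = 3) to 164 ± 40.8 CPM for IL5-Tg (SD, n = 4) without overlap (fitted log2 change -1.04 ± 0.27 SE, edgeR adjusted p = 0.209, and 0.0429 by DESeq2 to 0.604 over all settings). Cdkn2aipnl was at 0.46 (edgeR adjusted p = 0.699). The third CIP/KIP gene, Cdkn1c, which is imprinted, was at 9.45 ± 6.26 CPM in WT and 20.7 ± 15.5 CPM in IL5-Tg libraries.

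The list of senescence-associated genes held the 1 gene that passed. Plaur, the urokinase receptor gene, was at 166, 96.2 and 184 CPM in WT and rose to 633, 728, 442 and 450 CPM in IL5-Tg libraries. Every IL5-Tg library was above every WT library. Its log2 fold change was 1.92 ± 0.32 (SE; edgeR adjusted p = 0.0375), and it no longer passed without WT 1, without WT 2 or without any 1 of the 4 IL5-Tg libraries, with an adjusted p between 5.7e-07 and 0.17 over all settings. The other 28 of 29 tested genes did not pass, and the median was 0.14. At an unadjusted p under 0.05 in the edgeR fit the count was 6, and DESeq2 called 2, Plaur and Il6. Of those 6, Plaur and Vegfa (1.48) were higher in IL5-Tg libraries. Il6, Il1b (-1.35), Icam1 (-1.19) and Ccl3 (-0.78) were lower. Il6, a cytokine gene of the senescent secretome, was at 57.6, 7.39 and 26.9 CPM in WT and at 8.43, 1.92, 7.58 and 4.72 CPM in IL5-Tg libraries (fitted log2 change -2.44 ± 0.67 SE, edgeR adjusted p = 0.256, and 0.0205 by DESeq2 to 0.933 over all settings).

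Markers of other cells were measured beside Cdkn2a and Cdkn2b, since sorted cells can carry RNA of others. Fibroblast markers summed to 3070 CPM in WT 1, 3480 in WT 2 and 17.1 in WT 3, against 2103 to 5054 CPM for IL5-Tg. WT 1 and WT 2 lay within the IL5-Tg range of fibroblast markers and had Cdkn2a at 0.846 and 3.06 CPM, and WT 3, where Pdgfra, Lum and Pdgfrb had 0 reads, had no Cdkn2a read. Macrophage and monocyte markers summed to 3821 to 5482 CPM in WT and 4987 to 6034 CPM in IL5-Tg libraries, and WT 2, at 5482 CPM, lay within the IL5-Tg range. Their most abundant genes were Adgre1 and Csf1r, with means of 1721 and 715 CPM in WT and 1770 and 927 CPM in IL5-Tg libraries. Adgre1 alone gave 2459 of the 3947 CPM in WT 3, its highest level in any library. C1qa and Cd68 were at 68.4 and 109 CPM there, their lowest levels in any library. These lay below the IL5-Tg ranges of 350 to 776 and 266 to 629 CPM. Adgre1 thus did not follow C1qa and Cd68, and the sum cannot be read as macrophage RNA alone. In WT 1 C1qa and Cd68 were at 373 and 422 CPM, within those ranges, whereas Adgre1 and Csf1r, at 1287 and 438 CPM, lay below theirs. In WT 3 Csf1r, at 785 CPM, lay within its range.

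Marker lists of 2 kinds separated the genotypes in the same way as Cdkn2a or in the opposite one. Muscle fibre markers summed to 136 to 415 CPM in WT and 425 to 1316 CPM in IL5-Tg libraries, led by Acta1 and Ckm. Mast cell and basophil markers, led by Tpsb2 and Mcpt4, summed to 79.7 to 108 CPM in WT and 3.07 to 30.2 CPM in IL5-Tg libraries. The part of fibroblast, macrophage, muscle fibre and mast cell RNA in the levels of Cdkn2a and Cdkn2b was not tested. The sums of the others overlapped: muscle progenitors (24.4 to 339 CPM in WT and 100.2 to 446 CPM in IL5-Tg libraries), endothelium (180.0 to 214 and 160.0 to 311), neutrophils (42.3 to 437 and 64.7 to 90.8), dendritic cells (435 to 1110 and 709 to 1355) and eosinophils (1493 to 2924 and 2025 to 4092). In WT 3 Pecam1 gave 160 of the 180.0 CPM of the endothelial sum, while Tek, Emcn, Egfl7 and Cldn5 had 0 reads. Single genes of the eosinophil and neutrophil lists moved with Cdkn2a although the sums of these lists overlapped. They are named after their values were seen. Of 10 eosinophil markers 3 rose and 0 fell by edgeR, with 8 positive values and a median log2 fold change of 1.05. Il5ra, at 83.8 to 181 CPM in WT and 48.0 to 88.3 CPM in IL5-Tg libraries, and Ccr3 had negative values. They were at -0.97 and -0.59 (edgeR adjusted p = 0.363 and 0.694). Prg2, the gene of the major basic protein of eosinophil granules, was at 104 to 144 CPM in WT and rose to 423 to 1122 CPM in IL5-Tg libraries (edgeR adjusted p = 0.0160). The eosinophil ribonuclease genes Ear1 and Ear6, of a family of related genes whose reads may be divided uncertainly, rose from 7.73 to 11.3 and 1.04 to 4.53 CPM to levels of 49.3 to 99.7 and 17.7 to 34.0 CPM (edgeR adjusted p = 0.00311 and 0.0268). Of 6 tested neutrophil markers, with a median of -1.09, 1 rose and 0 fell. It was Ngp, a granule protein gene best known from neutrophils, at 0.362, 0 and 0 CPM in WT 1 to 3 and 26.3 to 33.5 CPM in IL5-Tg libraries (edgeR adjusted p = 0.00311). The most abundant of that list, S100a8 and S100a9, did not pass. In WT 1 to 3 S100a8 was at 157, 65.1 and 2.36 CPM and S100a9 at 171, 43.2 and 5.77 CPM. In IL5-Tg libraries they were at 5.43 to 10.8 and 4.78 to 10.3 CPM. The part of these genes' source cells in the levels of Cdkn2a and Cdkn2b was not tested either. T and NK cell markers reached at most 10.4 CPM in any library and B cell markers 8.79 CPM, with Pax5 at 0 reads in all 7 libraries and Cd3e at 0 in 6 of them.

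**Figure D4:**
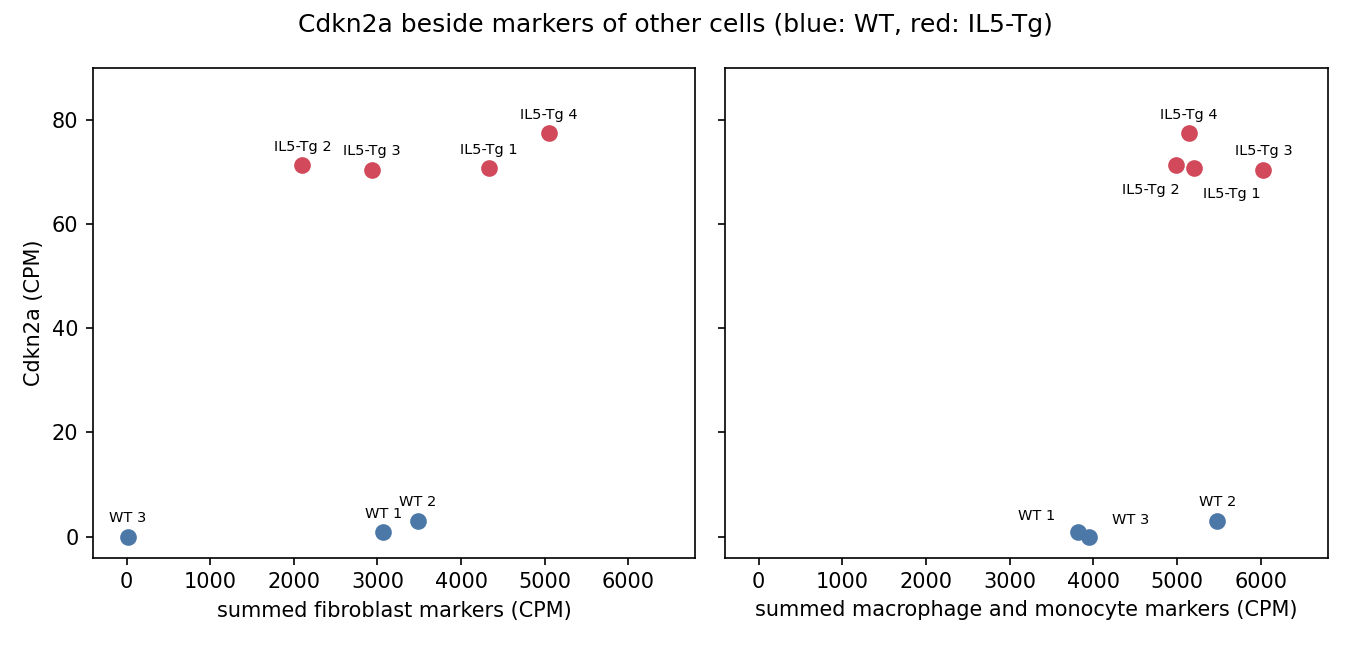
Cdkn2a level (CPM) in each library against the summed level of fibroblast markers (left) and of macrophage and monocyte markers (right), with WT in blue and IL5-Tg in red. WT 1 and 2 lie within the IL5-Tg range of fibroblast markers and WT 2 within that of the macrophage sum, whose largest part is Adgre1. WT 1 and WT 3 lie below every IL5-Tg library in the macrophage sum, in which Adgre1 did not follow C1qa and Cd68. All WT libraries have Cdkn2a at 3.06 CPM or less. The part of these cells' RNA in the Cdkn2a level was not tested.

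The genes whose level followed Cdkn2a most closely over the 7 libraries, of 9314 with a mean of at least 5 CPM, were Vps41 (Pearson r of log2(CPM + 1) 0.984), Rtn4ip1 (0.976), the neutrophil marker Ngp (0.976), Ift57 (0.975) and Aldoc (0.975). Those nearest to Cdkn2b were Ccdc32 (0.987), Enah (0.982), Aldoc (0.980), Upp1 (0.979) and Ptgs1 (0.976). Aldoc, a glycolytic aldolase gene, was among the 5 nearest of both, and went from a mean of 4.11 CPM in WT to 27.7 CPM in IL5-Tg libraries. The libraries share the difference between genotypes, which alone gives a high r to any gene that separates them. After each genotype's mean was removed, among the nearest to Cdkn2a were Atp9a (0.994), Rpl27a (0.990), Gins4 (0.989) and Obsl1 (0.988), and to Cdkn2b Fam3a (0.999), Glb1 (0.996), Ccdc32 (0.989), Man2c1 (0.986) and Ttf2 (0.983). Ccdc32 was on both lists for Cdkn2b. These remainders come mainly from the 3 WT libraries, where the 2 genes rest on at most 29 reads.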

How the data were processed

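The deposited table holds read counts per gene for 7 libraries, raw as their whole numbers and differing totals show. Per the labels' protocols, libraries were stranded mRNA, sequenced as paired reads. The submitters' processing notes name STAR, Bowtie and bcl2fastq 2.20 with the mm10 build. How reads were counted, with which annotation and strand setting, is not given in the sources used here. Reads in no feature (9.15% to 18.2% of a library) and ambiguous reads (0.750% to 0.943%) were left out.

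All genes were fitted in edgeR 4.0.16 (R 4.3.3) with TMM, filterByExpr by genotype and the robust quasi-likelihood F test, and passing meant an adjusted p (Benjamini-Hochberg) under 0.05. Each SE of a fitted log2 fold change was derived from that test, as the size of the change divided by the square root of its F statistic. Alternatives were other scalings and filters, DESeq2 1.42.0, limma 3.58.1 voom, counts divided by the most common low count (the centre of the window of 5 counts holding most genes), thinning, leaving out each library and, added after seeing the data, a block for titles that begin alike. The fit was tested on simulated data. Replicate numbers follow accession order and pair nothing. Pairs of replicates differed by a chi-square per gene of 27.5 to 159, so none was counted as a repeat.

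CPM used TMM-scaled totals of reads in genes, and exon lengths came from GENCODE vM21. The members and lists were chosen with earlier results of these data known. Genes named were the 6 members, each list's genes that passed or, where none or one did, the 2 with the smallest p, the 2 most abundant markers of a list, the 5 genes most like Cdkn2a and Cdkn2b, and the nearest neighbours. Cdk4, Ccnd1, Ccnd3, Rb1, Rbl1, Rbl2, Trp53, Mdm2, Bmi1, Ezh2 and Cdkn1c were named for their known roles, after their values were seen. All markers named beyond the 2 most abundant of a list, C1qa and Cd68 among them, were also picked after their values were seen. So were Vegfa, Il1b, Icam1 and Ccl3 of the senescence list. A gene that the rule on likeness takes is not reported here.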

Additional observations from a re-analysis of the deposited data

Results flagged for a closer look

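Among 65 sets of 4 IL5-Tg values, 5 had 1 library far from the other 3, where chance alone gives about 1 in 20. Cdkn2a was at 77.4 CPM in IL5-Tg replicate 4 against 70.3 to 71.2 CPM in the others. Cdkn2c was at 10.6 CPM in IL5-Tg replicate 2 against 17.1 to 18.1 CPM. Plk2 was at 120 CPM in IL5-Tg replicate 4 against 75.7 to 81.3 CPM, and Cul1 at 47.9 CPM in the same library against 38.7 to 40.2 CPM. The endothelial marker gene Pecam1 was at 84.4 CPM in IL5-Tg replicate 3 against 147 to 149 CPM.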

How the results depend on the processing

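Under the 17 alternatives run, 5 CDK inhibitor genes kept the sign of their log2 fold change, and Cdkn1b did in all but one (0.01). Leaving out each library in turn gave 5.31 to 7.25 for Cdkn2a and 3.17 to 4.17 for Cdkn2b, and the 10 other alternatives gave 5.45 to 6.45 and 3.38 to 3.84. The count of changed genes, 51, was 225 by DESeq2, 22 by limma-voom and 100 with counts divided by the most common low count, and 16 to 97 when a library was left out. Over the pathway lists the count, 1, was 6 by DESeq2, 2 with divided counts and 0 to 3 when a library was left out. The cause was not tested. Of the 6 inhibitors, the 2 that passed were reduced to 1 by upper-quartile scaling (51 genes passed in all) and by both other filters (72 and 52). They were reduced to 0 by limma-voom (22) and without WT replicate 1 (19) or any 1 IL5-Tg library (16 to 30). By DESeq2, with 225 genes in all, 2 of the 6 passed. The labels give no shared replicate numbers. In 2 cases a WT and an IL5-Tg title share their start (WT 1 with IL5-Tg 3, WT 2 with IL5-Tg 4), whose meaning is not stated, and these libraries' deviations from their genotype's mean had r of 0.175 and -0.0233. IL5-Tg 1 and 2 share a start with each other, and that of WT 3 occurs in no other title. With the start as a replicate block, WT 3 and IL5-Tg 1 and 2 add nothing to the difference between genotypes. It then rests on the 2 cases above, WT 1 with IL5-Tg 3 and WT 2 with IL5-Tg 4. In that fit, chosen after seeing the data, 52 genes passed, 46 higher and 6 lower. Cdkn2a was at 5.45, Cdkn2b at 3.58 and Cdkn1b at 0.01, Plaur had an adjusted p of 0.0521 and Cdk6 of 0.0108, and 1 gene of the lists passed. Depth limits the WT levels of Cdkn2a and Cdkn2b, with 43 and 52 reads in all.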
